A study of Mus musculus with 20 samples.

Results

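Drd1, Drd2, Adora2a, Ppp1r1b, Rgs9, Tac1, Penk and Pde10a are genes of the medium spiny neurons of the striatum, and they were followed here through the dissected hippocampus as a gauge of bordering tissue. The 8 genes were chosen by name, with earlier results of these data known. All 8 were in the table of 33119 genes, and all 8 were among the 21724 genes that passed the filter on low counts. Bulk hippocampal RNA came from 20 mice aged 16 months, with 4 groups of 5: males and females that carried hAPOE3, and males and females that carried hAPOE4. All mice were homozygous targeted replacement animals on a C57BL/6 background, so the human APOE3 or APOE4 allele takes the place of the mouse Apoe gene in every cell and the series holds no group with the mouse allele. The mice were perfused with saline and each hippocampus was cut free of the cortex.

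Medium spiny neurons are the GABAergic projection neurons of the striatum and receive dense dopamine input from the midbrain. They form a direct pathway, whose cells carry the D1 dopamine receptor and substance P, and an indirect pathway, whose cells carry the D2 dopamine receptor, the adenosine receptor encoded by Adora2a and enkephalin. DARPP-32, RGS9 and PDE10A set the strength of cAMP signalling in both. The hippocampus makes several of these transcripts itself at lower levels, so a level above 0 is not by itself a mark of striatal tissue.

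Total counts ran from 35778879 to 52520279 per mouse, and the mitochondrial genome gave 6.47% to 11.4% of them. Xist ran from 654 to 988 CPM (counts scaled to the library total) in the females and from 3.95 to 28.4 in the males, so each library matched its labelled sex. Apoe ran from 37.4 to 98.9 CPM over all mice with overlap of the groups. It does not check the genotype, since reads were assigned to mouse cDNA and the counts do not separate the human APOE3 and APOE4 alleles. The 14 markers of hippocampal neurons summed to between 738 and 1398 CPM, so the labelled tissue was present in every library. However, 4 mice stood apart in genes of the striatum or of other bordering regions: hAPOE3 male S158, hAPOE3 female S148 and hAPOE4 males S176 and S178. They were picked out by their values, so the other 16 mice serve below only as a range to read them against, and the group results of the 8 genes are given with and without them. In bulk RNA, more cells of a type and more RNA per cell cannot be told apart.

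Drd1 encodes the D1 dopamine receptor of the direct pathway (chr13:54051183-54055705, minus strand, GRCm38). It was measured at 4.59, 4.64, 5.68, 5.95 and 26.4 CPM in hAPOE3 males and at 4.99, 5.19, 5.39, 5.47 and 9.33 in hAPOE4 males. In females its levels were 4.15, 4.48, 5.09, 8.22 and 10.5 CPM with hAPOE3 and 5.14, 5.74, 5.84, 6.77 and 9.61 with hAPOE4. The value of 26.4 belonged to S158, and the ranges of the groups overlapped.

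Drd2 encodes the D2 dopamine receptor of the indirect pathway, which is also made by midbrain dopamine neurons (chr9:49340627-49408177, plus strand). Its levels were 2.46, 2.71, 3.29, 5.07 and 33.9 CPM in hAPOE3 males and 1.70, 2.18, 3.62, 5.46 and 14.8 in hAPOE4 males. Females had 1.68, 1.86, 3.53, 5.99 and 9.87 CPM of Drd2 with hAPOE3 and 2.30, 2.72, 3.09, 3.56 and 3.8 with hAPOE4. S158 was highest, followed by S176 at 14.8 and S148 at 9.87, while the hAPOE4 females, which hold none of the 4 mice, spanned the narrowest range.

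Adora2a encodes an adenosine receptor that opposes the D2 receptor in indirect pathway neurons (chr10:75316877-75334784, plus strand). This was the scarcest of the 8 genes, with 35 to 1770 counts per mouse. In males it stood at 1.35, 1.47, 1.79, 1.92 and 32.7 CPM with hAPOE3 and at 1.13, 1.41, 1.43, 3.62 and 8.16 with hAPOE4. In females it stood at 0.999, 1.23, 1.5, 1.67 and 6.70 CPM with hAPOE3 and at 1.12, 1.43, 1.5, 1.71 and 1.83 with hAPOE4. All 4 mice that stood apart lay above the other 16, whose highest Adora2a level was 1.92 CPM, and the level in S158 was 21.7 times the median of 20 mice.

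Ppp1r1b encodes DARPP-32, an inhibitor of protein phosphatase 1 that is phosphorylated downstream of dopamine (chr11:98348404-98357796, plus strand). It was at 36.1, 39.8, 48.8, 55.7 and 246 CPM in hAPOE3 males and at 27.6, 28.02, 33.6, 56.9 and 63.1 in hAPOE4 males. Females had 34.8, 38.5, 50.9, 54.4 and 78.1 CPM of Ppp1r1b with hAPOE3 and 28.5, 32.3, 45.9, 49.7 and 55.5 with hAPOE4. In both male groups and in hAPOE3 females the highest mouse was among those that stood apart.

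Rgs9 encodes a regulator of G protein signalling that shortens the response of dopamine and opioid receptors (chr11:109225355-109298129, minus strand). In males its levels were 11.1, 11.1, 11.6, 12.8 and 82.7 CPM with hAPOE3 and 11.4, 11.5, 12.3, 12.8 and 16.7 with hAPOE4. In females they were 10.4, 10.5, 11.8, 12.5 and 23.1 CPM with hAPOE3 and 9.69, 12.3, 12.5, 13.6 and 13.6 with hAPOE4. Apart from S158, S148 and S176, which had 82.7, 23.1 and 16.7 CPM, the mice of all groups lay close together.

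Pde10a encodes a phosphodiesterase that breaks down cAMP and cGMP (chr17:8525372-8986648, plus strand). Males had 49.2, 56.9, 69.3, 77.8 and 173 CPM with hAPOE3 and 65.7, 69.1, 70.7, 79.5 and 90.6 with hAPOE4. Females had 54.7, 67.1, 76.3, 76.8 and 84.9 CPM of Pde10a with hAPOE3 and 66.5, 68.0, 69.8, 71.4 and 76.5 with hAPOE4. S158 was again the highest mouse, at 2.46 times the median of all mice, but S148, S176 and S178 lay within the range of the other 16.

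Tac1 encodes the precursor of substance P, a peptide of the direct pathway (chr6:7554879-7565834, plus strand). It reached 6.32, 7.74, 8.90, 9.54 and 38.9 CPM in hAPOE3 males and 6.73, 7.32, 7.91, 11.9 and 19.8 in hAPOE4 males. In females Tac1 reached 5.11, 5.71, 7.66, 8.99 and 16.8 CPM with hAPOE3 and 4.70, 7.01, 7.88, 8.34 and 13.5 with hAPOE4. S158, S176 and S148 were the highest mice, in this order.

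Penk encodes proenkephalin, the source of the enkephalin peptides of the indirect pathway (chr4:4133531-4138819, minus strand). Its levels were 17.7, 22.1, 26.3, 28.3 and 186 CPM in hAPOE3 males and 16.2, 16.4, 19.7, 30.6 and 71.6 in hAPOE4 males. In females Penk was at 16.7, 17.3, 18.8, 23.0 and 53.6 CPM with hAPOE3 and at 13.8, 18.1, 19.9, 27.7 and 34.0 with hAPOE4. S158 was followed by S178 and S148 for Penk, where S176 was second for Drd2 and Tac1.

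**Figure D1:**
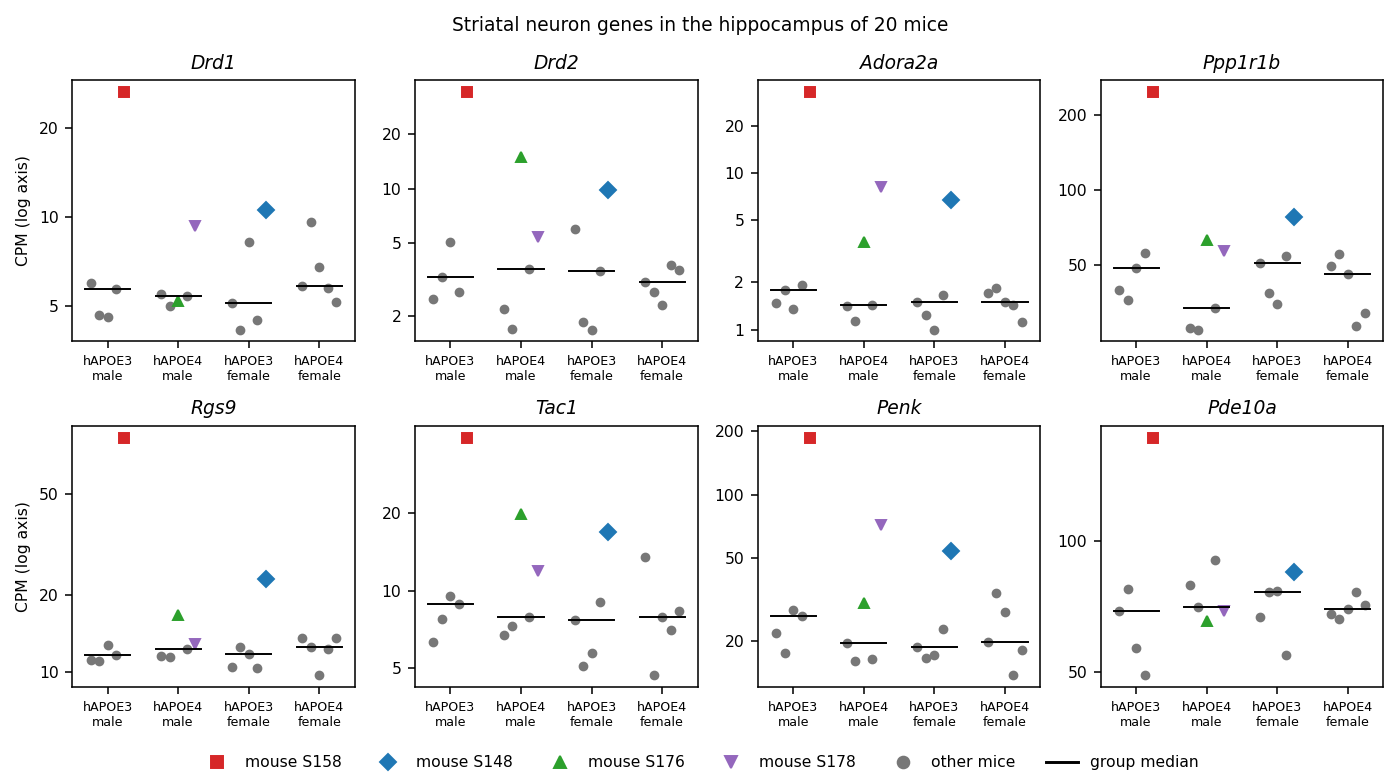
Level of each of the 8 striatal genes in 20 mice, as TMM-normalized CPM on a log axis, by group (5 mice each). Each point is a mouse, the line is the group median, and coloured symbols mark S158, S148, S176 and S178. S158 is the highest point in every panel, from 26.4 CPM for Drd1 to 246 CPM for Ppp1r1b.

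Compared per kilobase of exon, the order of the genes was not the same in the mice that stood apart. In the other 16 mice the median level was 13.4 CPM per kb for Ppp1r1b, 11.8 for Penk and 5.47 for Pde10a. Tac1 was at 2.27, Rgs9 at 1.83, Drd1 at 1.5, Drd2 at 1.14 and Adora2a at 0.474 CPM per kb. Neighbours in this order overlapped in their ranges over these mice, except that Penk, at least 8.45, stayed above Pde10a, at most 7.05, and Adora2a, at most 0.627, below Drd2, at least 0.661. In S158, Penk led with 114 CPM per kb, ahead of Ppp1r1b with 84.2. Drd2 at 13.3 and Adora2a at 10.7 CPM per kb then lay near Pde10a, at 13.4, and above Drd1, at 7.28. Ppp1r1b and Penk share exonic bases with a transcript of the opposite strand, 1700003D09Rik (11 to 121 counts per mouse, against 1101 to 13346 for Ppp1r1b) and A830012C17Rik (1 to 25 counts, against 589 to 10064 for Penk).

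To assess the impact of APOE genotype in males, hAPOE4 males were compared with hAPOE3 males. In the fit of all mice with edgeR's quasi-likelihood test, the 8 genes were all lower in hAPOE4 males, with a median log2 fold change of -0.82 against 0.00 over all genes tested. None passed the adjusted threshold (0 of 8, where 0.621% of all genes tested did), 2 of 8 had an unadjusted p below 0.05 (9.06% of all genes did), and DESeq2 and limma also called 0. For the receptors, the log2 fold change was -0.64 (SE 0.41, edgeR adjusted p = 0.623) for Drd1. It was -0.77 (SE 0.69, edgeR adjusted p = 0.725) for Drd2 and -1.32 (SE 0.81, edgeR adjusted p = 0.609) for Adora2a. Of the signalling genes, Ppp1r1b differed by -1.03 (SE 0.44, edgeR adjusted p = 0.482) and Rgs9 by -1.0002 (SE 0.45, edgeR adjusted p = 0.514), the genes with an unadjusted p below 0.05. Pde10a differed by -0.18 (SE 0.23, edgeR adjusted p = 0.814). Of the peptides, Tac1 differed by -0.42 (SE 0.46, edgeR adjusted p = 0.777) and Penk by -0.86 (SE 0.58, edgeR adjusted p = 0.641).

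The direction in males rested on S158. Without this mouse, 7 of the 8 genes had a positive log2 fold change, which was 0.22 (SE 0.26) for Drd1, 0.72 (SE 0.55) for Drd2 and 0.94 (SE 0.56) for Adora2a. Rgs9 was then at 0.15 (SE 0.19), Pde10a at 0.25 (SE 0.13), Tac1 at 0.40 (SE 0.36) and Penk at 0.39 (SE 0.42). Ppp1r1b alone kept its sign, at -0.11 (SE 0.27). The median turned to 0.32 and 0 of 8 were called (smallest edgeR adjusted p = 0.554), where 212 of 22103 genes were. An unadjusted p below 0.05 was found for 0 of 8, against 10.1% of all genes. Without all 4 mice that stood apart, 5 of 8 were lower in hAPOE4 males and the median was -0.23. Then 0 were called (edgeR, smallest adjusted p = 0.474), where 0.317% of all genes were, with 2 at an unadjusted p below 0.05 (8.64% of all genes).

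Between hAPOE4 and hAPOE3 females, 7 of 8 genes were lower in hAPOE4 mice and 0 were called, where 0.667% of all genes were. The median log2 fold change was -0.17, ranging from -0.68 for Adora2a to 0.03 for Drd1, and the smallest edgeR adjusted p was 0.857, with 0 genes at an unadjusted p below 0.05 (10.1% of all genes). The group of hAPOE3 females includes S148. Without the 4 mice, 2 of 8 were lower and the median was 0.16. Again 0 were called (0.398% of all genes) and 0 had an unadjusted p below 0.05 (9.4% of all genes).

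The sexes were then compared within each genotype. In hAPOE3 mice the 8 genes were all lower in females than in males, with a median log2 fold change of -0.83 against 0.00 over all genes. Of these, 0 were called, where 0.0414% of all genes were, and 0 had an unadjusted p below 0.05, against 5.22% of all genes. Adora2a differed most, by -1.69 (SE 0.82, edgeR adjusted p = 0.805), followed by Penk at -1.11 (SE 0.58) and Drd2 at -1.05 (SE 0.70). The other members were at -0.92 (SE 0.45) for Rgs9, -0.73 (SE 0.43) for Ppp1r1b, -0.69 (SE 0.46) for Tac1, -0.54 (SE 0.41) for Drd1 and -0.24 (SE 0.23) for Pde10a. Without S158 all 8 were higher in females, between 0.13 for Tac1 and 0.58 for Adora2a, with a median of 0.21 and a smallest edgeR adjusted p of 0.993. In that refit 0 were called, against 9 of 22103 genes, and 0 had an unadjusted p below 0.05 (3.99% of all genes). Without the 4 mice, 6 of 8 were lower in females and the median was -0.05. Here 0 were called (0.0407% of all genes) and 0 had an unadjusted p below 0.05 (5.31% of all genes).

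In hAPOE4 mice 6 of 8 genes were lower in females, from -1.05 for Adora2a to 0.13 for Drd1, with a median log2 fold change of -0.23. Again 0 were called by edgeR, where 0.437% of all genes were, 0 had an unadjusted p below 0.05 (5.80% of all genes), and the smallest adjusted p was 1.00. The hAPOE4 males hold S176 and S178. Without the 4 mice, 1 of 8 was lower in females and the median was 0.26. Then 0 were called (0.258% of all genes), with 1 gene at an unadjusted p below 0.05 (7.46% of all genes). The interaction of sex and APOE was positive for all 8 genes (median 0.66 on the log2 scale), with 0 called, against 0.184% of all genes, and 0 at an unadjusted p below 0.05, against 2.54%. It was negative for all 8 without S158 (median -0.40), and 1 of 8 was negative without the 4 mice (median 0.40). In each of these refits 0 were called and 1 gene had an unadjusted p below 0.05. Of all genes, 30 of 22103 were called without S158 and 0 without the 4 mice, with 3.29% and 3.54% at an unadjusted p below 0.05. All of these comparisons share groups, so their signs are not independent of each other.

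**Figure D2:**
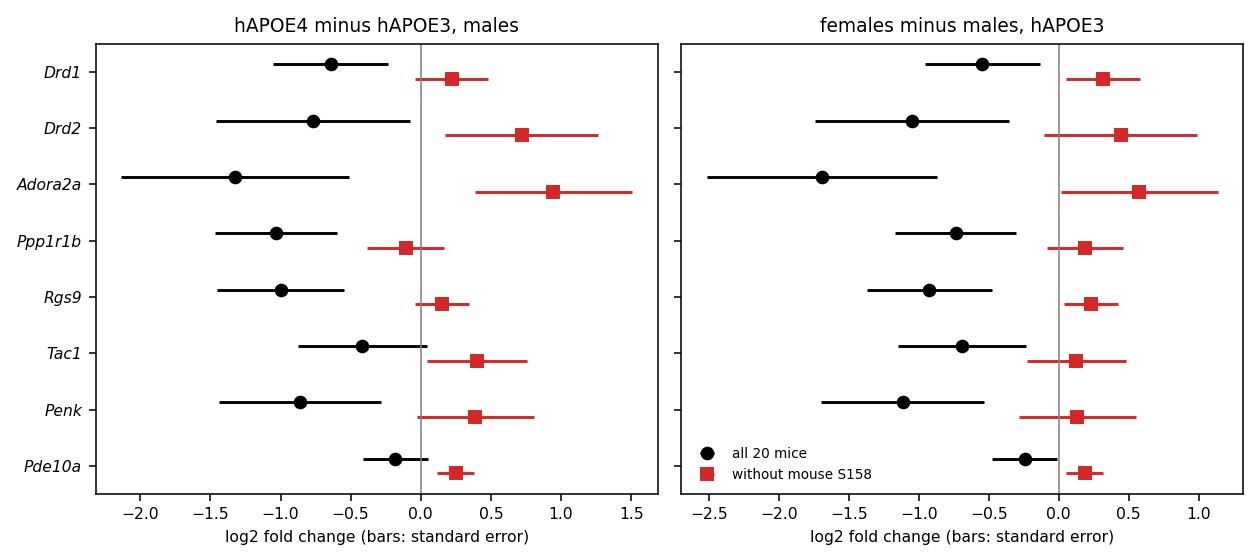
Log2 fold change of the 8 genes between hAPOE4 and hAPOE3 males (left) and between hAPOE3 females and males (right), with all 20 mice (black) and without S158 (red); bars are standard errors of the edgeR fit. All 8 black points lie below 0 in both panels, and the red points lie above 0 except for Ppp1r1b in males, at -0.11.

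The mice that stood apart did not raise the 8 genes in the same proportions. The excess of each gene, which is its CPM less the median of the other 16 mice, was set against the excess in S158 as a description with no test. In S148 the excess was 14.3% to 29.3% of that in S158, with a median of 19.7%, and 7 of the 8 genes, all but Pde10a, lay above the other 16 mice. In S176 it ran from -4.45% to 38.8%: Drd2 had 38.6% and Tac1 38.8%, whereas Adora2a had 6.95%, Penk 6.81% and Drd1 -1.14%. In S178 it ran from -1.12% to 31.4%: Penk had 31.4%, Adora2a 21.5% and Drd1 18.6%, whereas Rgs9 had 1.59%. S176 had 5 genes above the other 16 mice and S178 had 3, which were Adora2a, Penk and Ppp1r1b. Over these 8 genes the excess thus spanned a narrower range in S148 than in S176 and S178. Beyond the 8 genes it was less even in S148. Of other medium spiny neuron genes, Adcy5 had -17.3%, Pde1b 6.0% and Pdyn 47.0% of the excess in S158.

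**Figure D3:**
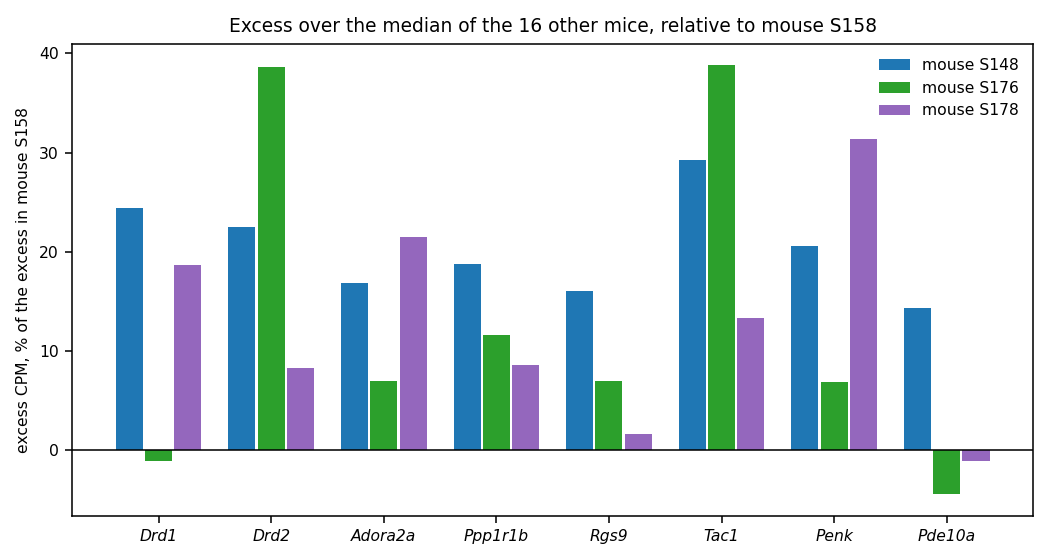
Excess CPM of each gene in S148, S176 and S178 over the median of the other 16 mice, as a percentage of the excess in S158. The bars of S148 lie between 14.3% and 29.3% for all 8 genes, while those of S176 reach 38.8% for Tac1 and 38.6% for Drd2, and those of S178 reach 31.4% for Penk.

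A list of other medium spiny neuron genes showed how far this went beyond the members. Of 27 listed genes, 26 were in the table and 25 passed the filter, and 18 of the 25 lay above the other 16 mice in S158, with 10 in S148, 9 in S176 and 11 in S178. Below the other 16 lay 1 in S158 (Bcl11b, a transcription factor also made by hippocampal neurons), 0 in S148, 5 in S176 and 4 in S178, Bcl11b and Foxp1 being below in both S176 and S178. The median fold over the other 16 was 2.29 in S158, 1.23 in S148, 1.09 in S176 and 1.28 in S178. As background, 16096 genes were ranked: those with a mean log2 CPM above 0, members included. Above the other 16, at 2-fold or more of their median, lay 430 in S158, 53 in S148, 399 in S176 and 173 in S178. They held 8, 4, 3 and 2 members and 12, 4, 5 and 2 genes of this list, in the same order. The share of all genes outside the range of the 16 with no such minimum was not counted, here or for the other lists. Counts above or below the 16 without that minimum therefore have no baseline and are a description only. The genes most like the members were Rarb, a retinoic acid receptor, Syndig1l and the orphan receptor Gpr6. Rarb had 18.8 CPM in S158, 7.999 in S148, 8.11 in S176 and 7.26 in S178, against 2.94 to 5.74 in the other 16 mice. Syndig1l had 49.8, 13.3, 22.05 and 10.2 CPM in the same order, against 4.68 to 8.75. Gpr6, an indirect pathway gene, had 9.34 CPM in S158 and 2.69 in S148, but 0.986 in S176 and 1.07 in S178, inside the range of 0.703 to 1.39. By edgeR, 0 of the 25 genes were called in each of the 5 comparisons, with at most 6 at an unadjusted p below 0.05 (hAPOE4 against hAPOE3 males, where 0.621% of all genes were called and 9.06% were at an unadjusted p below 0.05). Without the 4 mice it was again 0 of 25 in each, with at most 3 at an unadjusted p below 0.05. These 3 were between hAPOE4 and hAPOE3 females, where 0.398% of all genes were called and 9.4% were at an unadjusted p below 0.05.

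The makers of the ligands and the partners of the members inside the cell were listed as well. Of these 27 genes 25 passed the filter, while Drd3 and Drd4, further dopamine receptors, reached at most 13 and 21 counts and were not tested. By edgeR, 0 of 25 were called in each of the 5 comparisons, with at most 4 at an unadjusted p below 0.05. These 4 were between females and males with hAPOE4, where 0.437% of all genes were called and 5.80% were at an unadjusted p below 0.05. Without the 4 mice it was again 0, with at most 4 at an unadjusted p below 0.05 (hAPOE4 against hAPOE3 females, where 0.398% of all genes were called and 9.4% were below 0.05 unadjusted). In S158, 14 of the 25 lay above the other 16 mice and 4 below, and in S148 0 above and 3 below. Those below in S158 were Drd5, a dopamine receptor, Adora1, an adenosine receptor, Oprd1, an enkephalin receptor, and Rgs7bp, a partner of RGS proteins, of which Oprd1 had 4.01 CPM in S158 and 3.32 in S148 against 4.43 to 15.1. These 4 were named after their values were seen. Gnal, the G protein that couples the D1 and adenosine receptors to adenylyl cyclase, was most like the members (r = 0.84), and it and Pde1b are also on the list of striatal genes. It had 219 CPM in S158 and 114.6 to 149 in the other 16 mice, followed by Pde1b (r = 0.83), another phosphodiesterase, with 262 CPM against 82.4 to 137, and by Tacr1 (r = 0.77), the receptor of substance P, with 6.92 against 1.43 to 2.84. In S176, Tacr1 was higher still, at 11.5 CPM. Dopamine makers were looked at after their values were seen. Th, the rate-limiting enzyme of dopamine synthesis, had 14.9 CPM in S158 and 22.2 in S176, against at most 0.888 in the other 16 mice, 0.399 in S148 and 0.829 in S178. Slc6a3, the dopamine transporter, had 21.5 and 46.6 CPM in S158 and S176, against at most 0.429. Of 9 genes of midbrain dopamine neurons, which also make Drd2, 8 lay above the other 16 mice in S158, 9 in S176, 2 in S178 and 0 in S148.

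Thalamic markers moved with the members in 3 of the 4 mice, and habenular markers did so in part. All 11 thalamic genes were above the other 16 mice in S158, S176 and S178, with summed levels of 1065, 1013 and 996 CPM against 287 to 364, and 0 of 11 were in S148, which had 275.5 CPM. At 2-fold or more of the median, 9 were above in S158, 9 in S176, 10 in S178 and 0 in S148. Of all 16096 genes ranked, 430, 399, 173 and 53 were, in the same order. Prkcd, Synpo2 and Ramp3 were the thalamic genes most like the members. Prkcd, which marks several thalamic nuclei, had 228 CPM in S158, 137 in S176, 226 in S178 and 41.0 in S148, against 16.5 to 50.7. Of 9 habenular genes, 6 were above the others in S158, 9 in S176, 4 in S178 and 0 in S148, with 1 below in S158 and 1 in S148. The 10 listed habenular genes, of which 9 passed the filter, summed to 134 CPM in S176. Their sum was 35.6 CPM in S158, 43.4 in S178 and 37.7 in S148, against 39.9 to 58.6 in the other 16 mice. Much of this sum was Nwd2, with a median of 41.5 CPM over 20 mice, 17.8 in S158 and 29.0 in S148. The median fold of the 9 genes over the other 16 mice was 2.16 in S158, 10.2 in S176, 1.38 in S178 and 1.28 in S148. Pou4f1, a transcription factor of habenular neurons, had 14.5 CPM in S176, 1.98 in S158 and 1.22 in S178, against 0.04 to 1.06. With all 20 mice it was the only listed gene past the threshold in any comparison, at a log2 fold change of -4.63 between hAPOE4 females and males (SE 0.99, edgeR adjusted p = 0.0359). Without S176 this was -2.73 (SE 0.73, edgeR adjusted p = 0.207). Without the 4 mice it was -2.61 (SE 0.40, edgeR adjusted p = 0.00612), and Pou4f1 was also called between hAPOE4 and hAPOE3 males (edgeR adjusted p = 0.0083). The 4 mice were left out because of their values in genes of these regions, and the mice kept had at most 1.06 CPM. The calls without the 4 mice are therefore not a test of a group difference in Pou4f1. In S148, then, striatal genes were high while defining thalamic and habenular genes stayed within the range of the other mice or below it.

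Of 6 oligodendrocyte genes, 6 lay above the other 16 mice in S158 and in S176, 3 in S178 and 0 in S148, with summed levels of 13152, 9456, 6389 and 5877 CPM against 4111 to 6254. Mbp, the myelin basic protein gene, had 6357 CPM in S158 and at most 2528 in the other 16. Conversely, 14 markers of hippocampal neurons summed to 784 CPM in S158, 790 in S176 and 738 in S178, against 843 to 1398 in the others and 1221 in S148. Below all of the other 16 mice lay 6 of these 14 in S158, 7 in S176, 7 in S178 and 0 in S148. Above them lay 1 of the 14 in S176 and 0 in S158, S178 and S148. The part of these regions in the level of the members was not tested.

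Of the remaining lists, some cortical genes were low in all 4 mice: 4 of 9 lay below the other 16 in S158, 4 in S148, 5 in S176 and 4 in S178, and 0 above in S158 and S148 and 1 each in S176 and S178. Tbr1, a transcription factor of cortical and subicular projection neurons, had 20.2 CPM in S158, 38.8 in S148, 25.1 in S176 and 37.8 in S178 against 42.2 to 76.9, and was named after its values were seen. The 12 choroid plexus genes summed to between 271 and 9523 CPM among the other 16 mice, a range that held all 4 mice, and 0 of 12 lay above it in any of them. For the 5 septal genes, 1 was above the others in S176 and 0 in S158, S148 and S178, with 1 below in each of S158, S176 and S178. Of 10 interneuron genes, Pvalb was the most like the members (r = 0.72) and the only 1 of the 10 above the others in S158, at 101 CPM against 24.05 to 74.3, with 3 below in S158, and in S176 3 were above and 6 below the others. Of 4 mossy cell genes, Calb2 (r = 0.76) had 86.3 CPM in S158 and 86.8 in S176 against 11.8 to 52.7. It was the only 1 of the 4 above the others in S158 and in S176, with 0 above in S148 and S178. The rest of this list had r between -0.30 and 0.16. The median fold of the 4 genes over the other 16 mice was 1.05 in S158, 1.42 in S148, 0.79 in S176 and 1.11 in S178. The 9 activity-induced genes had 0 above the others in all 4 mice.

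**Figure D4:**
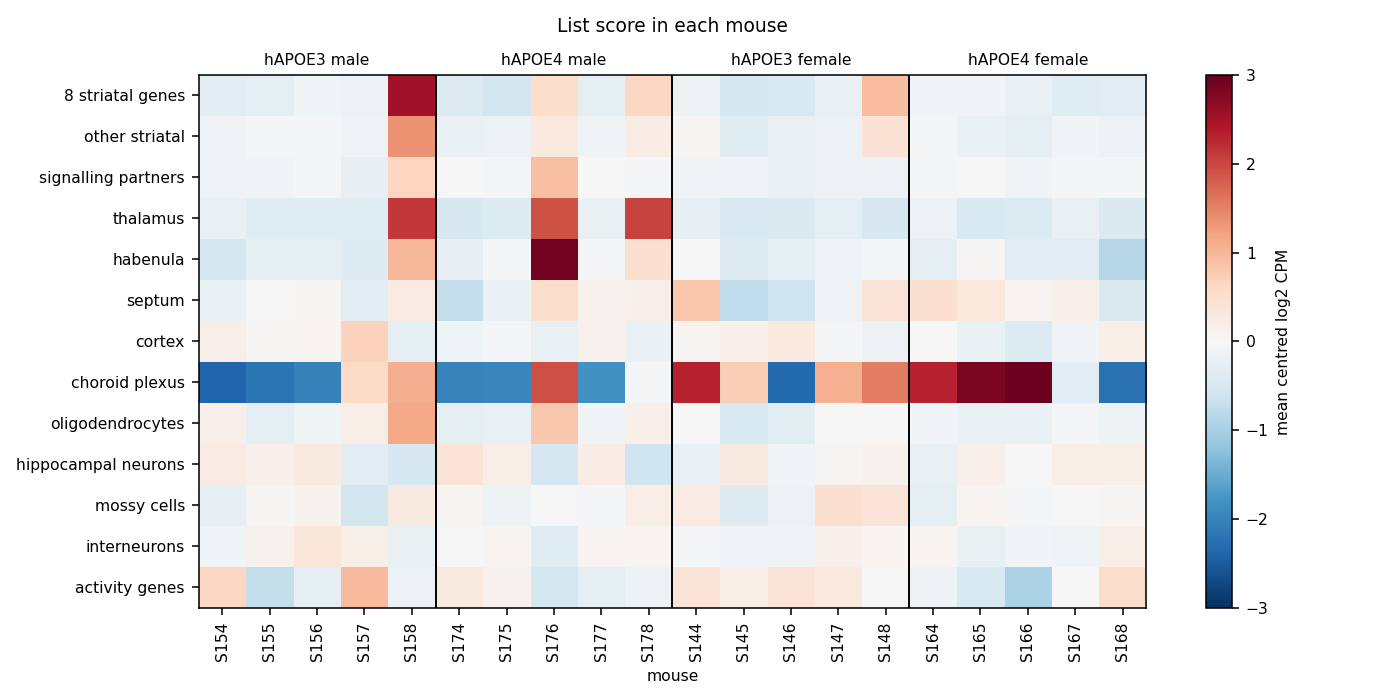
Score of each gene list in each of 20 mice, as the mean over its genes of log2 CPM centred on each gene's mean (colour), with mice in columns by group. The members score 2.53 in S158, 0.92 in S148, 0.61 in S178 and 0.54 in S176 and at most -0.08 in the others; thalamic genes score 2.11, 2.03 and 1.90 in S158, S178 and S176 but -0.49 in S148.

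To see whether the 8 genes varied together between mice of a group, their log2 CPM were centred on the group means and correlated over 20 mice. Over the 28 pairs the median Pearson r was 0.82, from 0.50 for Tac1 with Pde10a to 0.95 for Adora2a with Penk, and 19 pairs had an adjusted permutation p below 0.05. The indirect pathway pair of Adora2a and Penk had r = 0.95 (permutation p = 0.00019, adjusted 0.00133) and Spearman rho = 0.83 (permutation p = 0.00041, adjusted 0.00287), and r = 0.86 without S158 and S178. Ppp1r1b and Penk had r = 0.93 (permutation p = 3e-05, adjusted 0.00084) and rho = 0.91 (permutation p = 3e-05, adjusted 0.00084), and r = 0.86 without S158 and S175. Drd2 and Tac1, of different pathways, had r = 0.89 (permutation p = 7e-05, adjusted 0.00098) and rho = 0.81 (permutation p = 0.00022, adjusted 0.00205), and r = 0.76 without S158 and S176. Drd1 and Tac1, of the same pathway, had r = 0.60 (permutation p = 0.0620, adjusted 0.0755) and rho = 0.33 (permutation p = 0.177, adjusted 0.224), and r = 0.03 without S158 and S148.

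These relations rested largely on the mice that stood apart. Leaving out the 2 mice farthest from the median of the first gene of each pair, the median r was 0.58, from -0.08 to 0.86. These values kept the centring of all mice, so the mice left out still weigh on them. In the refits that follow, the values were centred again on the mice kept. Without S158 the median was 0.51, from -0.42 for Ppp1r1b with Pde10a to 0.89 for Adora2a with Penk, and 9 pairs passed, whereas without S148 12 did. Without all 4 mice the median was 0.04, from -0.64 to 0.80, with 13 of 28 pairs below 0 and 3 past the threshold. Pde10a was the gene least tied to the rest, with 5 of its 7 pairs below 0 without S158.

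**Figure D5:**
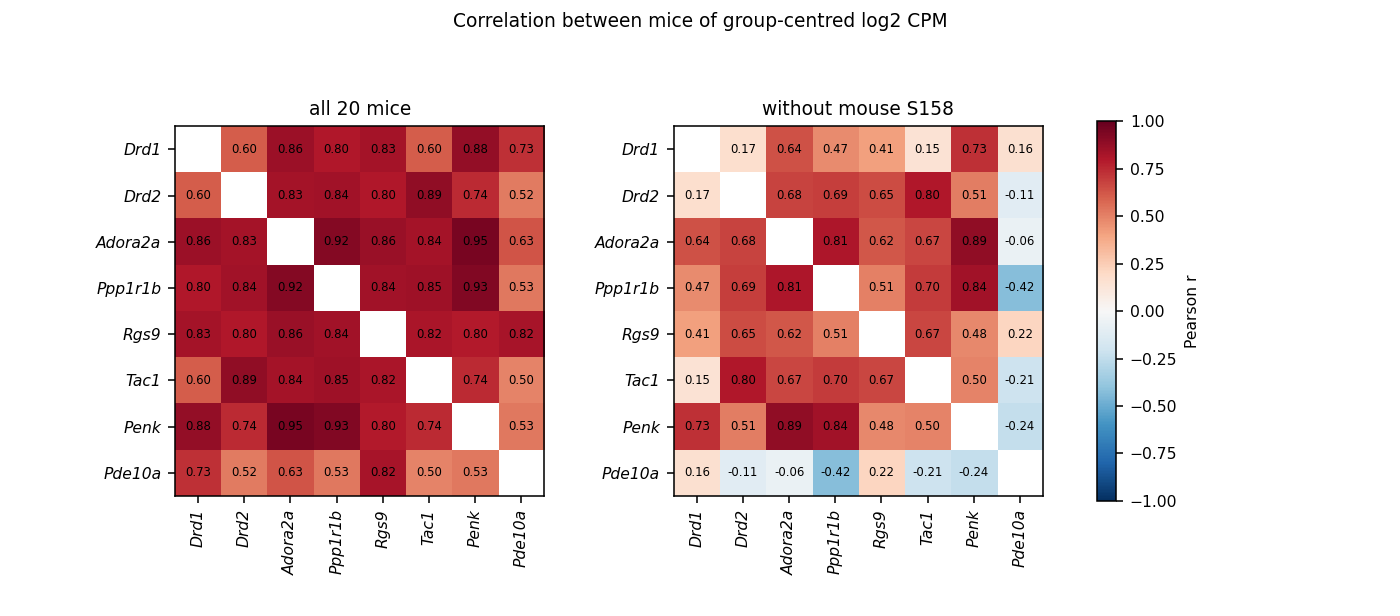
Pearson r between mice for each pair of the 8 genes, on log2 CPM centred on group means, with all 20 mice (left) and without S158 (right). The values run from 0.50 to 0.95 on the left and from -0.42 to 0.89 on the right, where the lowest are those of Pde10a.

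Promoter windows were read from RefSeq (GRCm38.p6) for the members that were found there, 5 of 8: Drd1, Drd2, Rgs9, Tac1 and Pde10a. Those of Drd2 and Rgs9, a pair with r = 0.80 over all mice and 0.65 without S158, are shown because they lie wholly before the annotated gene. Each holds the 250 bases before the RefSeq start, at chr9:49340153-49340402 (plus strand) and chr11:109298182-109298431 (minus strand). For both genes this start lies before the gene start given above, and the distances below are counted from the RefSeq start. Capitals mark the motifs searched that were found, GGGCGG or its reverse complement and TATAAA.
Drd2: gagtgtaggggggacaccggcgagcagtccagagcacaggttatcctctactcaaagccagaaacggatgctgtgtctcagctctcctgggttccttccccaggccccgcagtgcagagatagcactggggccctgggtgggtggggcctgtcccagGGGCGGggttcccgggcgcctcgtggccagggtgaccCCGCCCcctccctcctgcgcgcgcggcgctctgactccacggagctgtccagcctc
Rgs9: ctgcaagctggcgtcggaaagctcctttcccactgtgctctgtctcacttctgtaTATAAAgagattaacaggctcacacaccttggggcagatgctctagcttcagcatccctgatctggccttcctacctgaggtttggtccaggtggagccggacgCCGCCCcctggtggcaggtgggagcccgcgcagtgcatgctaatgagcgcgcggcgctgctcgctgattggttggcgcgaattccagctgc
Drd2 had the GC box GGGCGG 93 and, on the other strand, 56 bases before the start. Rgs9 had TATAAA 195 and the GC box 91 bases before. On either strand, GGGCGG was found in 32.7% and TATAAA in 12.4% of 32851 promoter windows of this length, and the cAMP response element TGACGTCA in 1.55%. None of the 5 genes had TGACGTCA in these windows. Tac1 had its variant TGCGTCA, found in 1.75% of windows, 199 bases before its RefSeq start. That window, chr6:7554811-7555060 (plus strand), reaches past the gene start given above for Tac1.

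Among the 16088 genes with a mean log2 CPM above 0 other than the members, those most like the member score over 20 mice, with centred values and no test, were Rarb (r = 0.95), Syndig1l (0.92), Pcp4l1 (0.90), Gpr6 (0.89), Golga7 (0.89), Six3 (0.89), Pcp4 (0.89), Mobp (0.88), Zfp14 (0.88) and Cacng4 (0.88). Of these 10, 4 were on the list of other striatal genes: Rarb, Syndig1l, Gpr6 and Six3. Without S158, r was 0.87 for Rarb, 0.86 for Pcp4l1 and 0.85 for Six3, and 0.63 for Gpr6. These correlations share the mice, and with them the depth of each library, with the member score.

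The spread of the members was wide for genes of their level. The standard deviation of log2 CPM within groups ran from 0.39 for Pde10a to 1.26 for Adora2a, against a median of 0.28 over all genes tested. Set among genes of like level, Drd1 lay at the 94.7th percentile, Pde10a at the 96.1st and Penk at the 99.7th. Without S158, Pde10a moved to the 67.8th, Rgs9 to the 78.4th and Drd1 to the 83.8th, while Penk stayed at the 99.2nd and Ppp1r1b at the 98.2nd.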

How the data were processed

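The authors sequenced polyA libraries of bulk hippocampal RNA (75 bp paired-end in the study's methods), assigned reads to mouse cDNA of Ensembl with Salmon 0.91 and imported them per gene; strandedness is not given in the sources used here. The deposited table holds the authors' estimated counts, which are whole numbers, so no rounding was needed. A second deposited table holds a signal, counts that the authors normalized with DESeq2, and served only for alternatives. Per the labels the replicates are 5 animals per group, with 0 columns left out.

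Counts were fitted with edgeR 4.0.16 in R 4.3.3 (TMM, filterByExpr by group, glmQLFit and glmQLFTest on all 20 mice with 1 mean per group), with Benjamini-Hochberg adjustment over 21724 genes and a threshold of 0.05. Standard errors were derived from each fold change with its F value. CPM are TMM-normalized, and log2 CPM used a prior count of 2. List scores are means over a list of log2 CPM centred per gene. Pairs of members were tested by two-sided permutation within groups with 100000 resamples, adjusted over 28 pairs. Genes of like level are those within 0.5 of mean log2 CPM. All 190 pairs of libraries differed beyond sampling noise (chi-square per gene at least 9.56). Gene positions and exon lengths are from GENCODE on GRCm38.

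Alternatives covered DESeq2 1.42.0, its size factors, no filter on low counts, limma 3.58.1 on the normalized counts with a pseudocount of 1, the 2 groups alone, uncentred values and each mouse left out, and, chosen after seeing the data, the 4 mice left out. The members, lists and tests were chosen with earlier results of these data known. The genes named were the members, the 3 genes of a list most like the member score (not all are repeated in the text), listed genes past the threshold and the 10 other genes most like the score. Th, Slc6a3, the midbrain list and genes low in the 4 mice (Bcl11b, Foxp1, Drd5, Adora1, Oprd1, Rgs7bp, Tbr1) were named after their values were seen. The script was tested on simulated counts. Metabolomic and imaging data were not used here.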

Additional observations from a re-analysis of the deposited data

Results flagged for a closer look

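In 11 of 32 tests (8 genes in 4 groups of 5 mice, on log2 CPM) the highest mouse lay far from the rest of its group: its gap to the nearest mouse, as a share of the range of the group, was above Dixon's critical value of 0.71 for 5 mice. In all 11 it was the highest mouse and in 0 the lowest. Chance flags about 1 in 20 groups, and the 8 genes share the mice, so these are not independent.

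S158 stood out among hAPOE3 males for 7 genes, with a share of 0.853 for Drd1, 0.726 for Drd2, 0.89 for Adora2a, 0.775 for Ppp1r1b, 0.928 for Rgs9, 0.774 for Tac1 and 0.80 for Penk. Pde10a, where S158 was also the highest, did not pass. S148 stood out among hAPOE3 females for Adora2a (0.735), Rgs9 (0.768) and Penk (0.725). S178 stood out among hAPOE4 males for Drd1 (0.852), whereas S176 did not pass for any gene. In hAPOE4 females no gene passed.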

How the results depend on the processing

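No member was called in any of the 5 comparisons by edgeR, DESeq2 or limma, without a filter, with the 2 groups alone or with any mouse left out (smallest adjusted p = 0.229). Directions changed. Of 416 refits of the log2 fold change in males and between hAPOE3 sexes, 22 changed sign. Without 1 mouse in turn, hAPOE4 against hAPOE3 males ran from -0.85 to 0.22 for Drd1, -1.56 to 0.72 for Drd2, -2.05 to 0.94 for Adora2a, -1.19 to 0.15 for Rgs9, -0.76 to 0.40 for Tac1, -1.43 to 0.39 for Penk and -0.33 to 0.25 for Pde10a. Between hAPOE3 sexes it ran from -0.79 to 0.32 for Drd1, -1.54 to 0.44 for Drd2, -2.54 to 0.58 for Adora2a, -0.94 to 0.19 for Ppp1r1b, -1.20 to 0.23 for Rgs9, -1.06 to 0.13 for Tac1, -1.57 to 0.13 for Penk and -0.38 to 0.19 for Pde10a. All highest values are those without S158. With limma on the normalized counts, Drd1 (0.071) and Tac1 (0.017) were higher in hAPOE4 males, and the cause was not tested. Without the 4 mice, Drd1 (0.014), Rgs9 (0.0072) and Pde10a (0.34) were higher in hAPOE4 males, and Drd1 (0.063) and Pde10a (0.11) in hAPOE3 females. Of the 28 pairs of members 9 to 20 passed without 1 mouse (9 without S158, 12 without S148) and 3 without the 4 mice. No paired analysis was possible because the labels number no replicates: the numbers used here follow accession order and pair no mice. Each member had at least 35 counts in every mouse, and how much of the spread is counting error was not tested. The share of all genes called, set beside the members, also moved: 45 to 288 genes were called between genotypes in males, 74 to 345 in females (345 by DESeq2), 8 to 23 between hAPOE3 sexes, 32 to 275 between hAPOE4 sexes and 0 to 118 for the interaction (0 without the 4 mice, 118 without S174).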
